A study of Mus musculus with 6 samples.

Results

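The genes described are 31 interferon-stimulated genes, listed by name, of the 54242 gene symbols in the deposited table, and all 31 were found there. Messenger RNA was measured in L4-6 dorsal root ganglia, which house the sensory neurons of the hind limb, from male C57bl/6 mice aged 8-10 weeks. One group had food ad libitum and is called fed, the other underwent intermittent fasting for 10 days and is called fasted. Each has 3 libraries, and the labels name no genetic change or further agent in either. They add that the mice were killed after 24 hours, without saying from which point. Ganglia of both groups were dissociated with enzymes and enriched for neurons on a BSA gradient, so each value comes from a mixture of neurons and the cells that stayed with them. Values are TPM (a share of the transcripts of a library, corrected for transcript length and scaled to the same total in each), summed over the transcripts of a gene. TPM keep no sequencing depth, so the counting error behind low values is unknown. No label says whether a library is 1 animal or a pool, and p-values then measure only the spread between these libraries.

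Type I interferons bind a receptor made of IFNAR1 and IFNAR2, whose kinases JAK1 and TYK2 phosphorylate STAT proteins, STAT2 among them. With IRF9, STAT2 takes part in the complex ISGF3, which binds the interferon-stimulated response element near the start of its target genes. The products of those genes sense viral nucleic acid, block steps of viral growth, tag proteins with the ubiquitin-like modifier ISG15, and adjust the pathway itself. Many of them are also expressed at a low level without infection, in neurons, glia, macrophages and endothelium.

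Among the 6 libraries, 2 stood apart, and the level of some other RNA differed between the diets. Fed replicate 2 carried the most skeletal muscle RNA, with 3599 TPM summed over 10 muscle markers against 262.1 to 553.9 TPM in the other 5 libraries. All 6 erythroid markers were higher under fasting, 5 without overlap and with a median difference of 0.73, and their sum was 1285, 1565 and 1379 TPM in fed libraries against 2348, 1716 and 3281 TPM in fasted ones. Fasted replicate 3, the highest of these, also had the highest sum of 7 neutrophil markers (244.2 TPM against 84.0 to 209.0 TPM). Mitochondrially encoded genes held 5.71%, 8.995% and 6.91% of TPM in fed libraries and less, 5.16%, 5.24% and 4.83%, in each fasted one. With TPM rescaled without these genes, 30 of 30 tested interferon-stimulated genes were still lower under fasting, beside 49.7% of all genes tested. The labelled tissue showed its defining markers, since 12 neuronal genes summed to between 16549 and 18953 TPM in each library. The same 2 libraries held the ends of this range, fed replicate 2 the lowest and fasted replicate 3 the highest. Fed replicate 2 also had the highest sums of macrophage (208.6 TPM), endothelial (315.0 TPM) and satellite glia (7781 TPM) markers.

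The response element is shown first, because it is what these genes are known to share. Promoter windows from RefSeq (GRCm38.p6), from 250 bases before to 50 bases after an annotated start, were found for 23 of the 31 genes. The core of the element, GAAA, then 2 bases of any kind, then GAAA, searched on both strands with overlapping matches kept, occurred in 14 of these 23 genes (60.9%). Some of these genes have more than 1 window, and 14 of their 26 windows held the core. Over all 32851 promoter windows the same core occurred in 3.44%. The stretches below lie wholly before the start in both RefSeq and GENCODE M21, run 5′ to 3′ along the strand of the gene, and have the fixed letters of each match in capitals (TTTC where the match is on the opposite strand).
Isg15: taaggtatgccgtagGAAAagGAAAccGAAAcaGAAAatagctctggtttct
Oas1a: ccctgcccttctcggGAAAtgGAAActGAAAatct
Bst2: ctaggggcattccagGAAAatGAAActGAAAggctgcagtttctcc
Cxcl10: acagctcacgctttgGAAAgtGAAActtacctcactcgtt
Ifit1: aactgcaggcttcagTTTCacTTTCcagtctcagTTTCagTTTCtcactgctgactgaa
Ifit3: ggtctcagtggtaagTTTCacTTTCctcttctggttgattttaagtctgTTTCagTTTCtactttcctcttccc
Ifit3b: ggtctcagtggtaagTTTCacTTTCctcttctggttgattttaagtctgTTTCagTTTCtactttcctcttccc
In Isg15 (chr4:156200860-156200911, minus strand) 3 matches overlap, the first beginning 78 bases before the start. Oas1a (chr5:120907526-120907560, minus strand) and Bst2 (chr8:71537572-71537617, minus strand) each have 2 that overlap. The match of Cxcl10 (chr5:92349078-92349117, minus strand) begins 213 bases before the start. The Ifit genes are neighbours on chromosome 19, and Ifit1 (chr19:34640770-34640828), Ifit3 (chr19:34583358-34583431) and Ifit3b (chr19:34607754-34607827), all on the plus strand, have 2 separate matches each. The stretches of Ifit3 and Ifit3b are identical over all 74 bases. The other genes with a match were Gbp2, Gbp3, Stat2 and Rsad2, upstream of the RefSeq start, and Ifih1, Eif2ak2 and Ifitm3, after the start. A second motif, TTCNNNGAA, of the kind bound by STAT dimers and the same on both strands, occurred in 6 of the 23 genes (26.1%). It was in 6 of their 26 windows and in 8.3% of all windows.

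**Figure D1:**
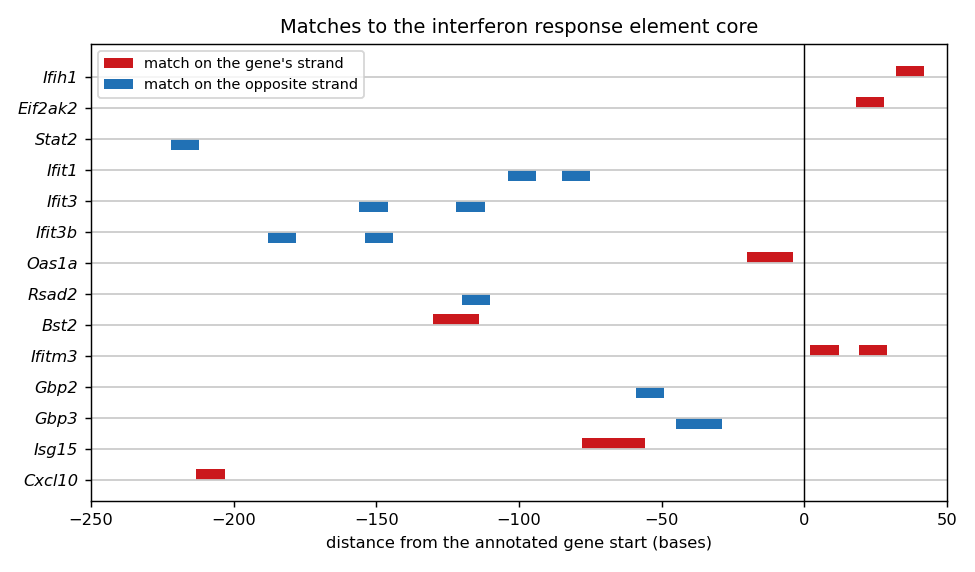
Positions of matches to the response element core in the promoter windows of the 14 genes that have one. The x axis is the distance from the annotated start in bases, each grey line is a window, and red and blue bars are matches on the strand of the gene and on the opposite strand. In 11 genes the matches lie before the start, and in Ifih1, Eif2ak2 and Ifitm3 after it.

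The 31 genes spanned a wide range of levels. Ifi27 was far above the rest, at a mean of 398.0 TPM over the 6 libraries, and Ifitm3 came next at 80.8 TPM. Ifi27l2a (42.5 TPM), Oasl2 (41.1 TPM) and Stat2 (38.4 TPM) followed. Both Ifi27l2a and Oasl2 were above Stat2 in every fed library and below it in every fasted one. There were 17 genes between 5 and 30 TPM and 9 below 5 TPM. The lowest was Mx1 (0.76 TPM), the only member under the limit of a mean of 1 TPM for testing. Mx1 codes for a dynamin-like antiviral GTPase, and C57BL/6 mice are known to carry a Mx1 allele with a coding deletion. Its values of 0.83, 0.50 and 1.45 TPM with free feeding, against 0.60, 0.92 and 0.24 TPM under fasting overlapped.

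The comparison asked is how the ganglia of fasted mice differ from those of fed mice. In the mean of log2(TPM + 1), a scale that understates the change of low genes, all 31 members were lower in fasted libraries. The median difference over the 31 was -0.14, and over the 30 tested it was also -0.14, against 0.03 over all 15097 tested genes. Of all tested genes, 37.5% were lower. In a mixed tissue, fewer cells of a type and less RNA per cell cannot be told apart. No member passed an adjusted p of 0.05 (limma, Benjamini-Hochberg over all tested genes), where 0.00662% of all genes did. The smallest adjusted p of a member was 0.275, for Oasl2. At an unadjusted p under 0.05, 9 of 30 members were lower and 0 higher, beside 3.22% and 6.72% of all tested genes. In 9 members every fasted value lay below every fed value, beside 5.07% of all tested genes, and in 0 members every fasted value lay above, beside 12.7%. These shares move with scaling, since 49.1% of all genes were lower under median-of-ratios scaling, where 30 of 30 members were lower too.

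**Figure D2:**
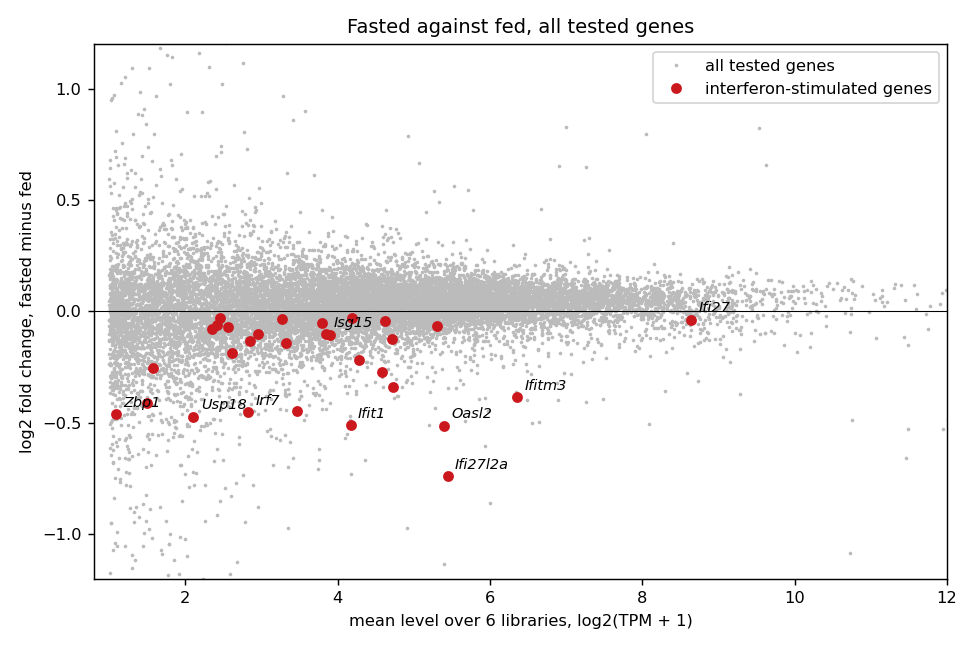
Log2 fold change of fasted against fed (y axis) by mean level over the 6 libraries (x axis, log2(TPM + 1)) for all tested genes in grey and the 30 tested interferon-stimulated genes in red. All red points lie below 0, from -0.74 for Ifi27l2a to -0.03 for Eif2ak2, and 79 of the grey points fall outside the y axis and 14 to the right of the x axis.

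The count of lower members depended in part on the libraries that stood apart. Without fasted replicate 3, 25 of 30 members were lower, with a median of -0.08, and 4 had an unadjusted p under 0.05. Of all tested genes, 40.3% were then lower and 2.66% lower at that p. Without fed replicate 2, 26 of 30 were lower, with a median of -0.15, and again 4 had an unadjusted p under 0.05. The shares of all tested genes were then 40.8% and 2.54%. With both libraries left out, an alternative chosen after the values were seen, 22 of 30 were lower, with a median of -0.07. In that fit 43.9% of all tested genes were lower. The median was -0.22 without fasted replicate 1. Fasted replicate 3 held the lowest of the 6 values in 21 of 31 members (67.7%), against 1668 of 15097 tested genes. Fed replicate 2 held the highest in 19 of 31 (61.3%), against 2354 of 15097 tested genes. Relative to the mean of the fed libraries, the median member stood at -0.09 in fasted replicate 1, -0.08 in fasted replicate 2 and -0.38 in fasted replicate 3.

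**Figure D3:**
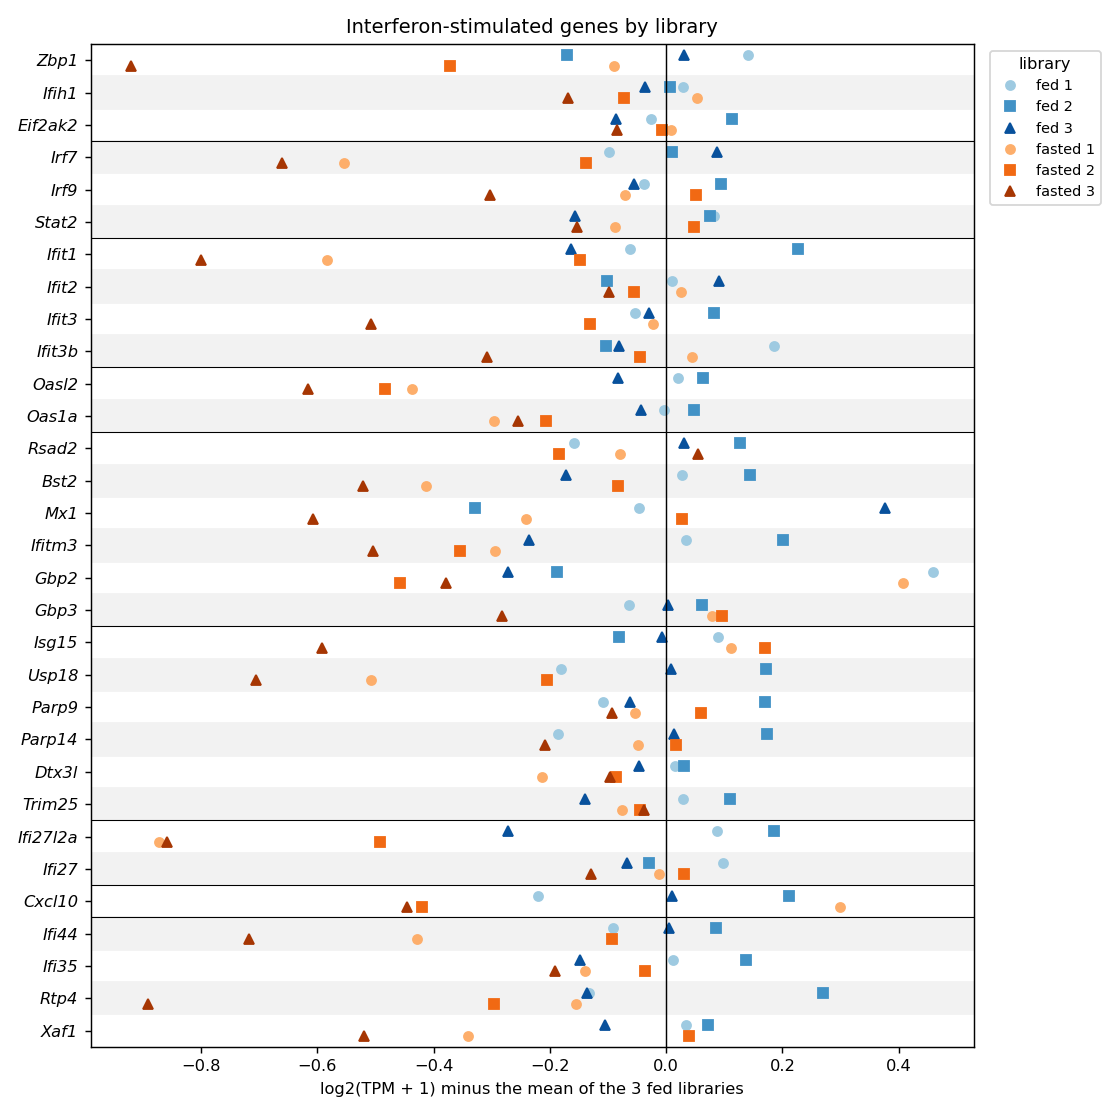
Each of the 31 genes by library, grouped by role. The x axis is log2(TPM + 1) minus the mean of the 3 fed libraries, with blue symbols for fed and orange to brown symbols for fasted libraries. The brown triangles, fasted replicate 3, are furthest left in 21 genes, and the blue squares, fed replicate 2, are furthest right in 19.

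Among the transcription factors of the pathway, Irf7 differed most. Irf7 (chromosome 7, 141262706 to 141266481, minus strand, GRCm38), the factor that amplifies interferon production, was at 6.61, 7.21 and 7.66 TPM in the 3 fed libraries in replicate order, against 4.55, 6.41 and 4.16 TPM under fasting. The groups did not overlap, although fasted replicate 2 came close to fed replicate 1. The log2 fold change was -0.45 (standard error 0.14, limma, adjusted p = 0.476). Irf9 and Stat2, which code for parts of ISGF3, overlapped between the diets. Irf9 was at 14.0, 15.5 and 13.9 TPM against 13.7, 15.0 and 11.5 TPM, a difference of -0.11. Stat2 was at 41.6, 41.4 and 35.1 TPM against 36.9, 40.6 and 35.2 TPM, with a difference of -0.06 and a 95% interval from -0.25 to 0.13.

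Of the sensors of foreign nucleic acid, Zbp1, which binds left-handed double helices, had the largest difference and the lowest level. It was at 1.67, 1.15 and 1.47 TPM with free feeding, against 1.28, 0.87 and 0.28 TPM under fasting, and fasted replicate 1 lay inside the fed range. It passed the limit for testing through its fed values. Ifih1, which codes for the RNA sensor MDA5, was between 3.83 and 4.63 TPM in all 6 libraries (difference -0.06, 95% interval -0.28 to 0.15). Eif2ak2, the RNA-activated kinase PKR that halts translation, was between 16.3 and 18.8 TPM (difference -0.03, 95% interval -0.18 to 0.13).

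The IFIT genes, whose proteins bind viral RNA, had differences from -0.51 to -0.04 and all overlapped between the diets. Ifit1 (chromosome 19, 34640871 to 34650009, plus strand), which recognises RNA with an incompletely methylated cap, was at 19.0003, 23.5 and 17.6 TPM with free feeding, against 12.9, 17.9 and 11.002 TPM under fasting. Fasted replicate 2 reached into the fed range. The mean was 20.0 ± 3.04 TPM with free feeding, against 13.9 ± 3.53 TPM under fasting (SD, n = 3 each), a log2 fold change of -0.51 with a standard error of 0.17 (limma, adjusted p = 0.478). Its neighbour Ifit2 was between 22.1 and 25.5 TPM throughout, a difference of -0.04 with a 95% interval from -0.19 to 0.11. Ifit3 was at 19.1, 21.05 and 19.4 TPM against 19.5, 18.02 and 13.7 TPM, so that only fasted replicate 3 lay well apart. Ifit3b was at 8.05, 6.41 and 6.52 TPM against 7.20, 6.71 and 5.43 TPM.

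Of the oligoadenylate synthetase family, the 2 genes among the 31 were lower without overlap. From the further list described later, Oas1b was lower without overlap too (difference -0.43), while Oas1c (mean 10.3 TPM, difference 0.07) and Oasl1 (-0.01) overlapped. Oas1g, Oas2 and Oas3 of that list, all under the limit for testing, had lower fasted means and overlapped. Oasl2 (chromosome 5, 114896936 to 114912234, plus strand), an OAS-like protein with ubiquitin-like domains, was at 49.2, 50.7 and 45.7 TPM with free feeding, against 35.5, 34.4 and 31.3 TPM under fasting. The gap between the groups was wider than the spread within either. Oasl2 averaged 48.5 ± 2.56 TPM against 33.7 ± 2.19 TPM, and ranked 3 of 15097 genes by its limma p. Its log2 fold change of -0.51 had a 95% interval from -0.66 to -0.37 and ran from -0.55 to -0.36 over the alternatives tried. Oas1a (chromosome 5, 120896256 to 120907521, minus strand), whose product makes the oligoadenylates that switch on RNase L, was at 2.24, 2.35 and 2.15 TPM against 1.64, 1.81 and 1.72 TPM. The log2 fold change was -0.25 (standard error 0.11, limma, adjusted p = 0.5).

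Of the 6 membrane and other antiviral effectors, all had a lower fasted mean and only Ifitm3 was without overlap. Ifitm3 (chromosome 7, 141009586 to 141010770, minus strand), which blocks the entry of viruses from endosomes, was at 93.5, 105.0 and 77.3 TPM with free feeding, against 74.2, 71.1 and 64.0 TPM under fasting. The groups were narrowly apart, fed replicate 3 lying just above fasted replicate 1. The log2 fold change was -0.38 (standard error 0.11, limma, adjusted p = 0.445). Bst2, tetherin, which holds budding virus at the cell surface, was at 28.9, 31.4 and 25.0 TPM against 21.04, 26.7 and 19.4 TPM, with fasted replicate 2 inside the fed range (difference -0.34). Rsad2, which codes for viperin, an enzyme that makes a chain-terminating nucleotide, was between 4.30 and 5.58 TPM, and fasted replicate 3, at 5.26 TPM, was above all libraries but fed replicate 2. The guanylate-binding proteins attack the vacuoles of intracellular microbes. Gbp2 was at 13.0, 7.92 and 7.41 TPM with free feeding, against 12.5, 6.39 and 6.81 TPM under fasting, so that replicate 1 of each diet lay far above the other 2. Gbp3 was at 8.27, 9.11 and 8.71 TPM against 9.23, 9.36 and 6.97 TPM.

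Among the 6 genes of ISG15 and of ubiquitin or ADP-ribose conjugation, Usp18 and Dtx3l were lower without overlap and the other 4 overlapped. Isg15 (chromosome 4, 156199424 to 156200818, minus strand) was at 14.6, 12.9 and 13.6 TPM with free feeding, against 14.9, 15.6 and 8.75 TPM under fasting. Fasted replicates 1 and 2 were above all fed values and fasted replicate 3 below them all. The log2 fold change was -0.10 with all libraries and 0.14 without fasted replicate 3. Usp18 (chromosome 6, 121245906 to 121270917, plus strand), which removes ISG15 from proteins and dampens the interferon receptor, was at 3.38, 4.60 and 3.999 TPM against 2.49, 3.31 and 2.05 TPM. Its groups did not overlap, with a log2 fold change of -0.47 and a standard error of 0.16 (limma, adjusted p = 0.476). Dtx3l, a ubiquitin ligase that pairs with the ADP-ribosyltransferase PARP9, was at 6.64, 6.72 and 6.31 TPM against 5.51, 6.12 and 6.06 TPM. These did not overlap, by a narrow margin, and the difference was -0.13. The Parp9 locus overlaps that of Dtx3l on the opposite strand, and the values of Parp9 overlapped between the diets at 4.13, 5.22 and 4.30 TPM against 4.33, 4.76 and 4.18 TPM. Parp14, another ADP-ribosyltransferase (3.52 to 4.89 TPM), and Trim25, a ubiquitin ligase that acts on the sensor RIG-I (11.8 to 14.2 TPM), overlapped too, with differences of -0.08 and -0.05.

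The 2 genes of the ISG12 family, which code for small hydrophobic membrane proteins and lie near each other on chromosome 12, had unlike values. Ifi27l2a (chromosome 12, 103442167 to 103443680, minus strand) was at 56.4, 60.4 and 43.7 TPM with free feeding, against 28.5, 37.4 and 28.8 TPM under fasting. Every fed value was above every fasted one. On the log2(TPM + 1) scale its log2 fold change of -0.74 (standard error 0.14) was the largest of the 31 in size (limma, adjusted p = 0.407). With 0.1 added to TPM in place of 1, Zbp1 had a larger one, -0.926 against -0.757 for Ifi27l2a. Over the alternatives the value of Ifi27l2a ran from -0.88 to -0.59. Ifi27 (chromosome 12, 103434211 to 103440239, plus strand) was at 430.8, 394.3 and 384.5 TPM against 399.1, 411.3 and 368.2 TPM, a log2 fold change of -0.04 with a 95% interval from -0.175 to 0.10. The 2 intervals did not overlap, and the difference between the genes was not itself tested.

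Of the remaining members, Cxcl10, a chemokine that draws activated T cells, overlapped widely at 4.47, 6.38 and 5.42 TPM against 6.84, 3.76 and 3.68 TPM, and fasted replicate 1 held its highest value. Ifi44 was at 2.01, 2.40 and 2.21 TPM against 1.38, 2.003 and 0.948 TPM, without overlap but with fasted replicate 2 touching fed replicate 1 (difference -0.41). Rtp4, a chaperone of membrane receptors, was at 10.45, 14.1 and 10.43 TPM against 10.3, 9.23 and 5.77 TPM, where fasted replicate 1 lay just under the fed values (difference -0.45). Xaf1, a partner of the apoptosis inhibitor XIAP, was at 25.8, 26.5 and 23.3 TPM against 19.6, 25.9 and 17.2 TPM, with fasted replicate 2 among the fed values. Ifi35 was between 22.9 and 29.045 TPM, a difference of -0.12.

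Genes with and without the response element core are set side by side as a description. The 14 genes with a match to the core had a median difference of -0.12, and the 9 with a promoter window and no match had one of -0.13. Those 9 include Oasl2 and Irf7, for which no match was found in the window used. Among genes with a match, 2 of 14 were lower without overlap, and among those without, 4 of 9, beside 5.07% of all tested genes. Members without a promoter window are in neither group, among them Usp18, Ifi27l2a and Rtp4, which were lower without overlap. A part of the element in the differences was not tested.

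Some members share sequence with close copies, which limits what their own values mean. Of the 31-base stretches in the Ifit3 transcript, 61.8% occur in Ifit3b too, and the longest transcripts of both are 98.0% identical over 1697 aligned bases. Summed, Ifit3 and Ifit3b were at 27.1, 27.5 and 25.9 TPM with free feeding, against 26.7, 24.7 and 19.1 TPM under fasting, again with fasted replicate 3 alone far apart. Oas1a shares 68.7% of its stretches with Oas1g. Together these were at 2.73, 3.57 and 2.50 TPM against 1.83, 2.24 and 2.13 TPM, still without overlap. Ifitm3 shares 20.5% with 9 other genes, Isg15 12.8%, Rtp4 12.5% and Ifit1 10.5%, while 7 members, among them Irf7, Usp18, Bst2 and Ifi27, share none.

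For Oasl2 the lower value was spread over its transcripts. The most abundant one, annotated as subject to nonsense-mediated decay and 48.6% of the gene, was at 22.1, 23.8 and 21.8 TPM with free feeding, against 18.9, 18.8 and 14.6 TPM under fasting, without overlap. The full-length coding transcript of 3123 bases was at 16.8, 19.6 and 12.7 TPM against 12.1, 14.4 and 12.3 TPM, which overlapped. A short coding transcript of 632 bases was at 7.16, 0 and 7.90 TPM with free feeding, against 0.55, 0 and 0 TPM under fasting. Such swings between overlapping transcripts are estimates, and a transcript listed at 0 need not be absent. For Irf9 the direction differed between the sum and its main transcript. Its main coding transcript was at 8.54, 10.9 and 7.22 TPM against 11.3, 12.1 and 7.44 TPM, higher on average in fasted libraries (log2 fold change 0.185, limma, adjusted p = 0.736). A second coding transcript was at 3.42, 2.67 and 5.135 TPM against 0, 0 and 1.94 TPM.

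**Figure D4:**
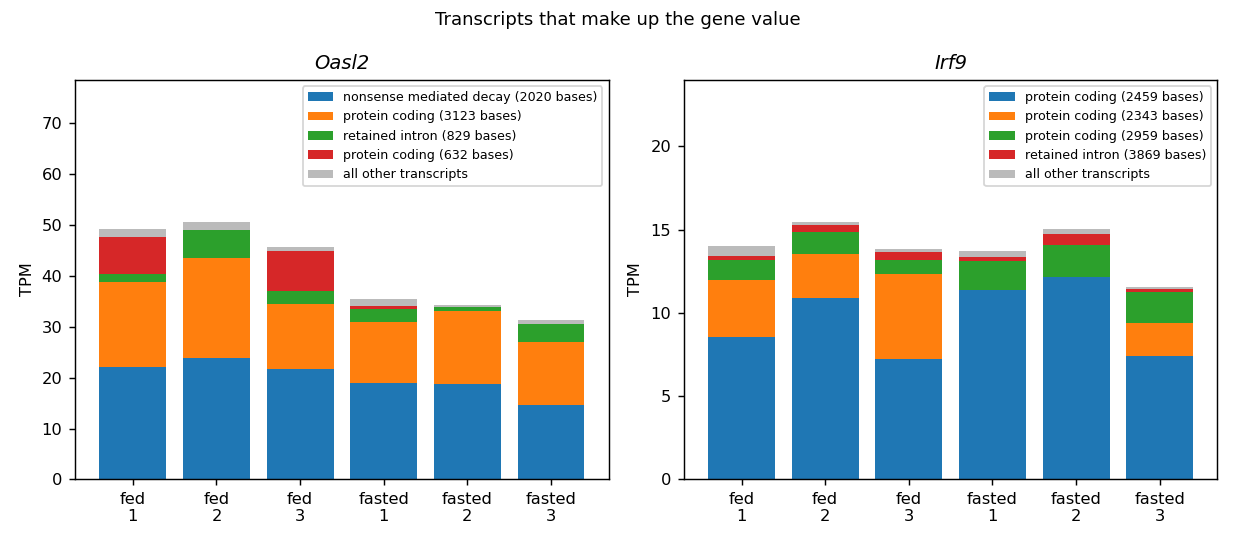
TPM of the transcripts that make up Oasl2 (left) and Irf9 (right) in each library, stacked, with the annotated type and length of the 4 most abundant and all others in grey. The blue and orange parts of the Oasl2 bars are both smaller on average in fasted libraries, while the blue part of Irf9 is larger in fasted replicates 1 and 2.

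Upstream of these genes, 10 interferon genes (Ifnb1, Ifng, 4 Ifna genes, Ifnk, Ifne, Ifnl2 and Ifnl3) were listed at 0 in every library. Of the receptor chains, Ifnlr1, for interferon lambda, was under the limit for testing (0.39 to 0.79 TPM), and those for type I interferon and interferon gamma were above it. Ifnar1 was at 31.2, 31.5 and 30.2 TPM with free feeding, against 34.8, 32.8 and 33.9 TPM under fasting, higher without overlap (log2 fold change 0.12, limma, adjusted p = 0.483). Its partner Ifnar2 was between 27.8 and 32.9 TPM and overlapped. Of the receptor for interferon gamma, Ifngr2 was at 60.0, 55.5 and 52.7 TPM against 51.3, 46.1 and 47.3 TPM, lower without overlap (-0.21, adjusted p = 0.449), and Ifngr1 overlapped at 28.1 to 30.985 TPM. The values of Ifnar1 and Ifngr2 thus differed in opposite directions, and neither passed the test.

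The 13 kinases, factors and inhibitors of the pathway had 7 lower and 6 higher values, with 0 past an unadjusted p of 0.05. The kinase gene Jak1 averaged 190.3 ± 9.18 TPM with free feeding, against 205.6 ± 8.90 TPM under fasting, and Tyk2 6.79 ± 0.325 against 7.19 ± 0.214 TPM. The factors Irf3 (30.6 ± 1.59 against 28.1 ± 0.966 TPM) and Irf8 (1.64 ± 0.116 against 1.24 ± 0.0918 TPM) were lower without overlap, and Pias1, an inhibitor of STAT proteins (15.2 ± 0.659 against 16.6 ± 1.08 TPM), was higher without overlap. Irf1 overlapped (13.8 ± 1.18 against 13.3 ± 1.05 TPM).

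Of 14 matched sensors and adaptors, 9 were tested, 6 lower and 3 higher, with 0 past an unadjusted p of 0.05. The RNA sensor Ddx58, which codes for RIG-I, was at 17.0, 18.1 and 14.8 TPM against 14.2, 15.4 and 14.5 TPM and overlapped. Its adaptor Mavs was between 5.75 and 6.47 TPM and the sensor Tlr3 between 3.94 and 5.63 TPM. Ticam1, the adaptor of TLR3, was at 4.22 ± 0.241 against 4.56 ± 0.191 TPM, higher without overlap by a bare margin (4.402 TPM in fed replicate 2, 4.404 TPM in fasted replicate 1).

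A further list of 56 interferon-induced genes, none of them among the 31, is given beside them. Like the 31, it was chosen with earlier results of these data known. Of 48 tested, 39 were lower and 9 higher, with a median of -0.14, and 8 lower and 0 higher had an unadjusted p under 0.05, beside 3.22% and 6.72% of all tested genes. In 11 the groups did not overlap, all lower, beside 5.07% of all tested genes lower and 12.7% higher without overlap. Those with the smallest p were Sp100, a nuclear body protein (8.01 ± 1.36 against 5.49 ± 0.345 TPM), and Uba7, the enzyme that activates ISG15 for conjugation (8.92 ± 1.71 against 5.83 ± 1.14 TPM). Next came Ifi204, a DNA sensor of the interferon-inducible family (1.59 ± 0.0967 against 0.945 ± 0.1005 TPM), which passed the limit for testing through its fed values, as did Ccl5 among the 39. It was followed by Oas1b (1.87 ± 0.278 against 1.13 ± 0.167 TPM). Gbp4 (1.96 ± 0.335 against 1.25 ± 0.165 TPM) and Ifitm1 (9.91 ± 2.36 against 6.98 ± 1.011 TPM) followed. None of the 48 passed an adjusted p of 0.05 (limma).

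Markers of macrophages and endothelium, cells known for high expression of interferon-stimulated genes, are given beside them, and none passed an adjusted p of 0.05 (limma, smallest 0.395). All 16 macrophage markers were lower under fasting, their median difference being -0.33 and 10 without overlap, beside 37.5% lower and 5.07% lower without overlap of all tested genes. Their sum was 175.6 to 208.6 TPM with free feeding, against 127.95 to 149.3 TPM under fasting. The most abundant, Lyz2, was at 59.8, 71.2 and 62.8 TPM against 42.0, 50.3 and 55.0 TPM, and C1qa at 19.7, 21.02 and 18.4 TPM against 13.6, 14.6 and 11.3 TPM. Of 14 endothelial markers, 13 were lower, 7 without overlap, with a median of -0.24, and their sum was 264.1 to 315.0 TPM with free feeding, against 225.8 to 248.8 TPM under fasting. Egfl7 was at 72.6, 80.4 and 68.75 TPM against 66.1, 68.5 and 68.68 TPM, and Ly6c1 at 64.4, 82.4 and 58.5 TPM against 48.8, 54.6 and 51.3 TPM. Of 12 neuronal markers, among them Nefl and Uchl1 as the most abundant, 11 were higher, with a median of 0.07. Pericyte and smooth muscle markers (9 of 9 lower, median -0.11) and satellite glia markers (7 of 9 lower, median -0.055) were mostly lower too. Schwann cell (4 of 9 lower, median 0.008) and fibroblast markers (4 of 9 lower, median 0.015) were split. The part of macrophage and endothelial RNA in the lower interferon-stimulated genes was not tested.

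Of other immune cells, T and NK cell markers summed to between 4.66 and 6.37 TPM, with 10 of 12 below the limit for testing. B cell markers summed to between 35.8 and 46.4 TPM, most of it Ighm. Of 6 plasmacytoid dendritic cell markers, 3 were tested, 2 of them lower. Their median of -0.34 was the value of Bst2, itself one of the 31. The most abundant were Bst2 and Tcf4 (13.7 to 16.1 TPM), which overlapped between the diets. The defining marker Siglech was below 1 TPM in every library and was not tested. It went the other way, at 0.34, 0.42 and 0.55 TPM with free feeding, against 0.59, 0.99 and 0.84 TPM under fasting, without overlap. The order of libraries was not the same for every list. Fasted replicate 3 was lowest for the interferon-stimulated genes, with a mean centred level of -0.285, where fasted replicates 1 and 2 stood at -0.044 and -0.015. For macrophage markers it stood at -0.23, close to fasted replicate 1 at -0.24. For endothelial markers it was the highest fasted library, at -0.02. The erythroid mean was 0.91 and the neutrophil mean 0.74 in that library. The part of erythroid and neutrophil RNA in the lower interferon-stimulated genes was not tested.

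**Figure D5:**
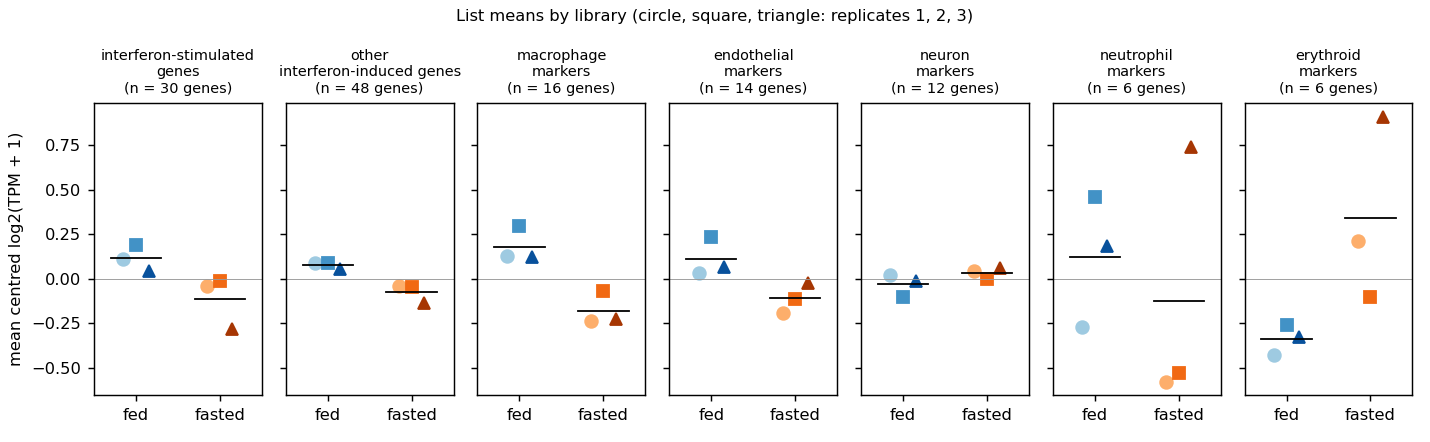
Mean of log2(TPM + 1), centred per gene, over the tested genes of 7 lists in each library (y axis). Symbols are replicates (circle 1, square 2, triangle 3) and bars the group means. The fasted triangle is lowest for both interferon lists and highest for the neuron, neutrophil and erythroid lists.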

How the data were processed

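The authors deposited TPM per transcript (140992 transcripts, 6 libraries). The submitters' processing notes list Salmon 1.6.0, Trim Galore 0.6.6, FastQC 0.11.9 and DESeq2 1.34.0 beside GRCm38 and mm10, with no role for any. No source names the annotation release used, and TPM hold no depth. TPM were summed by gene symbol, 15097 genes averaging 1 TPM or more were kept, and log2(TPM + 1) was compared with limma 3.58.1 (R 4.3.3, diet as the term, trended empirical Bayes, two-sided, Benjamini-Hochberg over all tested genes). The fit was tested on simulated data. Coordinates and transcript types came from GENCODE M21 (GRCm38), which holds 98.7% of the deposited transcript versions. Members and lists were chosen with earlier results of these data known. Named are all 31 members, 12 set pathway genes (1 of them is not reported here), up to 6 non-overlapping genes per pathway list and direction by smallest p, and the 2 most abundant markers of a cell type described. Alternatives changed the pseudocount, filter, scaling, empirical Bayes, weights, replicate block, transcripts and libraries.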

Additional observations from a re-analysis of the deposited data

How the results depend on the processing

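No member passed an adjusted p of 0.05 under any of the alternatives run (limma). The smallest member value was 0.104, for Oasl2, reached both with robust empirical Bayes and without fed replicate 3. Over all genes, the number past an adjusted p of 0.05, 1 as reported, was 2 with a pseudocount of 0.1 or 0.5 and 0 without a filter. Leaving out 1 library at a time, it ran from 1 to 7, the number of members lower at an unadjusted p under 0.05 from 4 to 9, and the number lower without overlap from 9 to 14. In those fits, 2.52% to 4.09% of all tested genes were lower at that unadjusted p, and 8.19% to 10.3% were lower without overlap. Without both fed replicate 2 and fasted replicate 3, chosen after seeing the data, the counts were 0 genes, 2 members and 10 members. Of all tested genes, 2.44% were then lower at that unadjusted p and 13.9% lower without overlap. Under array weights Parp9 was at 0.0015, and from the most abundant transcript alone Irf9 was at 0.185 and Ifi27 at 0.00019. Some members changed sign when 1 library was left out, and their log2 fold changes ranged as follows over those fits. Isg15 ran from -0.240 to 0.141, Gbp2 from -0.418 to 0.087, Ifit2 from -0.093 to 0.0032, Ifi27 from -0.071 to 0.011 and Trim25 from -0.123 to 0.0015. Gbp3 ran from -0.102 to 0.087, Parp9 from -0.083 to 0.056, Parp14 from -0.173 to 0.0068 and Eif2ak2 from -0.071 to 0.029. Irf9, Stat2 and Cxcl10 stayed below 0 in those fits, with lowest values of -0.186, -0.143 and -0.433. Without fed replicate 2 and fasted replicate 3, the values were 0.10 for Isg15, 0.038 for Irf9, 0.018 for Stat2, 0.118 for Gbp3, 0.045 for Cxcl10, 0.088 for Parp9, 0.071 for Parp14 and 0.057 for Eif2ak2. For all of these the cause was not tested. With a replicate block the smallest member adjusted p was 0.16, with 0 members past the threshold. The numbers were not taken to pair the samples, since deviations of same-numbered libraries correlated at 0.093, 0.114 and 0.066, although each library correlated best with its own number. TPM carry no depth, so what depth limits could not be measured.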
